A study of Mus musculus with 32 samples.

Results

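Phosphoglycerate kinase (Pgk1), glucose-6-phosphate dehydrogenase (G6pdx), hypoxanthine guanine phosphoribosyltransferase (Hprt) and phosphoribosyl pyrophosphate synthetase (Prps1) are 4 X-linked enzyme genes chosen by name from 1006 X-linked genes in the deposited tables. All 4 were listed in each of the 4 tables and passed the expression filter in each. They were measured by RNA-seq in mouse XEN cells, which are extraembryonic endoderm stem cells, here of a 129S1/SvImj X JF1/Ms cross. The authors split each gene's FPKM (fragments relative to transcript length and to the library total) into active X (Xa) and inactive X (Xi). The 32 samples fall into 12 groups, and each group is present as 1 merged value per gene and allele, so no value below has an SD, an n or a p-value, and sequencing depth is unknown.

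The first table holds WT (3 samples), XistpA (4), XRR_KO (2 samples, from 2 clones) and XRRa_KO (3), and the second holds XRRb_XaKO, XRRb_XiKO, XRRc_XaKO and XRRc_XiKO (2 each). The third holds Rad21 degron cells given DMSO or dTAG (4 each, from 2 clones that the merged columns pool), and the fourth holds Ctcf degron cells given DMSO or dTAG for 48 h (2 each). The dTAG compound causes a protein that carries its tag to be degraded, here the cohesin subunit Rad21 or the insulator protein Ctcf. The loss of either protein is not analysed here. XistpA carries the name of Xist, the noncoding RNA that silences the X it coats, but the labels explain neither that name nor XRR. Clones are not named for groups other than XRR_KO and the Rad21 degron. The 7 extraembryonic endoderm markers, 3 trophoblast markers and 3 pluripotency markers checked (Gata6, Cdx2 and Nanog among them) are absent from these X-only tables, so the cell type was not checked. Xist on Xi was 15.5 FPKM in WT, 0 in XistpA, 1.18 in XRR_KO and 7.86 in XRRa_KO, and 6.72 to 35.6 FPKM in the other 8 groups.

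The 4 enzymes lie on connected routes. Pgk1 carries out the ATP-forming step of glycolysis that its name describes, and G6pdx opens the oxidative branch of the pentose phosphate pathway, which makes NADPH and ribose phosphate. Prps1 turns ribose phosphate into phosphoribosyl pyrophosphate, and Hprt uses that compound to salvage purine bases. They are housekeeping genes subject to X inactivation, and variants of G6pdx, Hprt and Pgk1 or their human counterparts have long served to tell which X a cell uses.

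Promoter sequence is shown for Pgk1 and Hprt, the pair with the highest Xa levels, which stood apart on Xi in XistpA (shares of 9.14% and 0.0470%). The windows run from 250 bases before to 30 bases after the RefSeq start on GRCm38.p6, another build than the mm9 that the submitters' processing notes name. Capitals mark GC boxes (GGGCGG on either strand).
Pgk1, chrX:106186850-106187129, plus strand: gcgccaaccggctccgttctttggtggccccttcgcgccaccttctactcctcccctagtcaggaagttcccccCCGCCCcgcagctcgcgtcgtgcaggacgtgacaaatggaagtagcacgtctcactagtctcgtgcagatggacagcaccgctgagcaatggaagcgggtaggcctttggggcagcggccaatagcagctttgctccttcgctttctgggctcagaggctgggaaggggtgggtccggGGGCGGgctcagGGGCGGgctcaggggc
Hprt, chrX:52987828-52988107, plus strand: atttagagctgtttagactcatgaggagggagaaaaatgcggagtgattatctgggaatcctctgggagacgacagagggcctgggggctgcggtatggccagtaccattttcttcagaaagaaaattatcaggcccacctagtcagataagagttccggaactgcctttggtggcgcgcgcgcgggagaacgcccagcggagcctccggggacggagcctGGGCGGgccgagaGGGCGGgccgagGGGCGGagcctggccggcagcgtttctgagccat

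GC content was 65.4% in the Pgk1 window, 60.4% in Hprt, 60% in G6pdx and 50.7% in Prps1, beside a median of 57.9% over 257 tested X-linked genes that could be matched. All 4 windows held GC boxes, 3 each in Pgk1 and Hprt, 1 in G6pdx and 4 in Prps1. A GC box was present in 34.7% of 32851 promoter windows of the same length and in 61.5% of the X-linked ones. The TATA box (TATAAA, either strand) was found in none of the 4, against 8.95% of the X-linked windows. Pgk1 and Prps1 each had 1 CCAAT box (CCAAT, either strand, 49.8% of the X-linked windows) and Hprt and G6pdx had none. Pgk1 and Hprt had 20 CpG dinucleotides each, G6pdx 16 and Prps1 14, beside a median of 16 in the X-linked windows. The Pgk1 and Hprt windows, as cut here, held the same number of GC boxes and CpGs. Such counts depend on where a window ends, and counts for other windows are not given. These are counts of letters and show no binding.

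The genes differ in how many copies of them exist elsewhere, which bears on how far a read can be placed. Pgk1 has 2 processed pseudogenes with 100% identity to its transcript, Pgk1-rs7 on chromosome 12 over 68.8% of the transcript and Gm5537 on chromosome 3 over 68.6%. G6pdx has the retrogene G6pd2 on chromosome 5, at 93.1% identity over 87.5% of its length, and Prps1 has Prps1l3 on chromosome 12, at 93.5% over 73.7%. No transcript of another gene aligned to Hprt. Pgk1 values are uncertain to that extent in every group, since the placing of reads with several matches is not given in the sources used, and the part of these copies in the results was not tested.

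On the active X the 4 genes kept a common order in the first 2 tables. Pgk1 had 435, 369, 319 and 391 Xa FPKM in WT, XistpA, XRR_KO and XRRa_KO, and 446, 380, 425 and 368 in XRRb_XaKO, XRRb_XiKO, XRRc_XaKO and XRRc_XiKO. It was the 5th highest of 270 tested genes on Xa in WT. Hprt had 201, 190, 128 and 194 Xa FPKM in the first table and 224, 212, 207 and 192 in the second, and it ranked 14th in WT.

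Prps1 stood at 49.2, 55.1, 29.2 and 46.4 Xa FPKM in WT, XistpA, XRR_KO and XRRa_KO, and at 63.2, 67.3, 53.4 and 52.8 in the second table. G6pdx, the lowest of the 4, had 18.1, 17.1, 12.8 and 18.9 Xa FPKM in the first table and 18.3, 17.1, 19.4 and 16.2 in the second. Among these 8 groups, XRR_KO was the lowest for all 4 genes. The median tested gene had 7.20 to 8.92 Xa FPKM in the 8 groups, below each of the 4 genes.

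In the degron tables the Xa levels were lower for all 4 genes except G6pdx in Rad21 degron DMSO cells, but these tables were made separately and their levels are set side by side as listed values only. Pgk1 was at 195 Xa FPKM with DMSO and 170 with dTAG in Rad21 degron cells, and at 93.0 and 149 in Ctcf degron cells. Hprt was at 74.1 and 57.5, then at 30.4 and 43.1. Prps1 was at 21.5 and 9.26, then at 9.26 and 9.06, and G6pdx at 15.1 and 9.29, then at 10.3 and 11.1.

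Prps1 and G6pdx, the lowest pair, changed places between tables. Prps1 was 2.71 times G6pdx in WT, 1.42 times in Rad21 degron DMSO cells, and 0.997, 0.902 and 0.818 times in Rad21 degron dTAG, Ctcf degron DMSO and Ctcf degron dTAG cells. These ratios are taken within a column and do not depend on scaling between columns. With no replicate spread, the order of the pair cannot be settled where they lie this close.

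**Figure D1:**
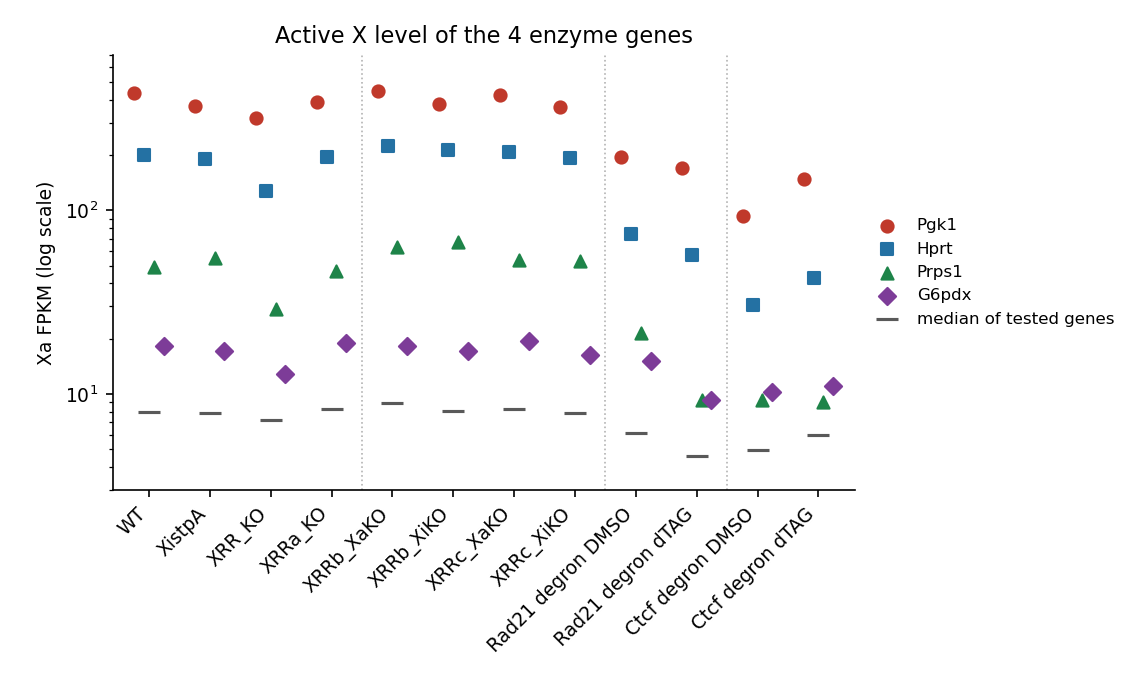
Xa FPKM (log scale) of Pgk1, Hprt, Prps1 and G6pdx in the 12 groups, 1 point per gene and group, with dashes for the median of tested genes and dotted lines between the 4 tables. Pgk1 is highest and Hprt next in every group, and Prps1 and G6pdx come together in the degron tables.

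On the inactive X the 4 genes were near 0 in almost every group. The Xi share, 100 times Xi FPKM over Xa plus Xi FPKM, was below 1% in all 12 groups for Hprt and Prps1 and in 11 of 12 for Pgk1 and G6pdx. Such silence was common, since 115 of 226 genes with a share in every group (50.9%) were below 1% in all 12. In WT 81.9% of 270 tested genes were below 1%, and 65.9% were listed at 0 on Xi.

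Pgk1 was listed at 0 on Xi in 6 groups (XRRa_KO, XRRc_XiKO and the 4 degron groups). It had 0.352 FPKM in WT, 0.315 in XRRb_XaKO, 0.226 in XRRb_XiKO and 0.352 in XRRc_XaKO, shares of 0.0594% to 0.0828%. In XRR_KO it had 2.05 FPKM (0.638%), and in XistpA it had 37.1 FPKM, a share of 9.14%. XistpA stood far above the other 11 groups for this gene.

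Hprt was listed at 0 on Xi in 9 groups. The exceptions were XistpA at 0.0895 FPKM (0.0470%), XRRa_KO at 0.260 FPKM (0.134%) and XRRb_XiKO at 0.702 FPKM (0.330%). G6pdx was also listed at 0 in 9 groups, and had 0.0263 FPKM in WT (0.145%), 0.243 in Rad21 degron DMSO cells (1.59%) and 0.0544 in Ctcf degron DMSO cells (0.527%). Both of its degron values were in DMSO cells, and the dTAG columns listed 0.

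Prps1 was listed at 0 on Xi in 2 groups, against 6 for Pgk1 and 9 each for Hprt and G6pdx. It was above 0 in all 8 groups of the first 2 tables, from 0.0562 FPKM in XRR_KO to 0.179 FPKM in XRRa_KO. Of all tested genes, 45.6% (XRR_KO) to 67.4% (XRRc_XaKO) were listed at 0 on Xi in those groups. The Prps1 shares there ran from 0.109% in XRRb_XiKO to 0.385% in XRRa_KO, with 0.220% in WT, 0.221% in XistpA and 0.192% in XRR_KO. Ctcf degron cells had 0.550% with DMSO and 0.352% with dTAG, and both Rad21 degron columns listed 0. The WT, XistpA and XRR_KO shares were thus almost level while Xist on Xi went from 15.5 to 0 and 1.18 FPKM. Those shares rest on just 0.108, 0.122 and 0.0562 Xi FPKM of Prps1, so nothing is read from their being level.

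**Figure D2:**
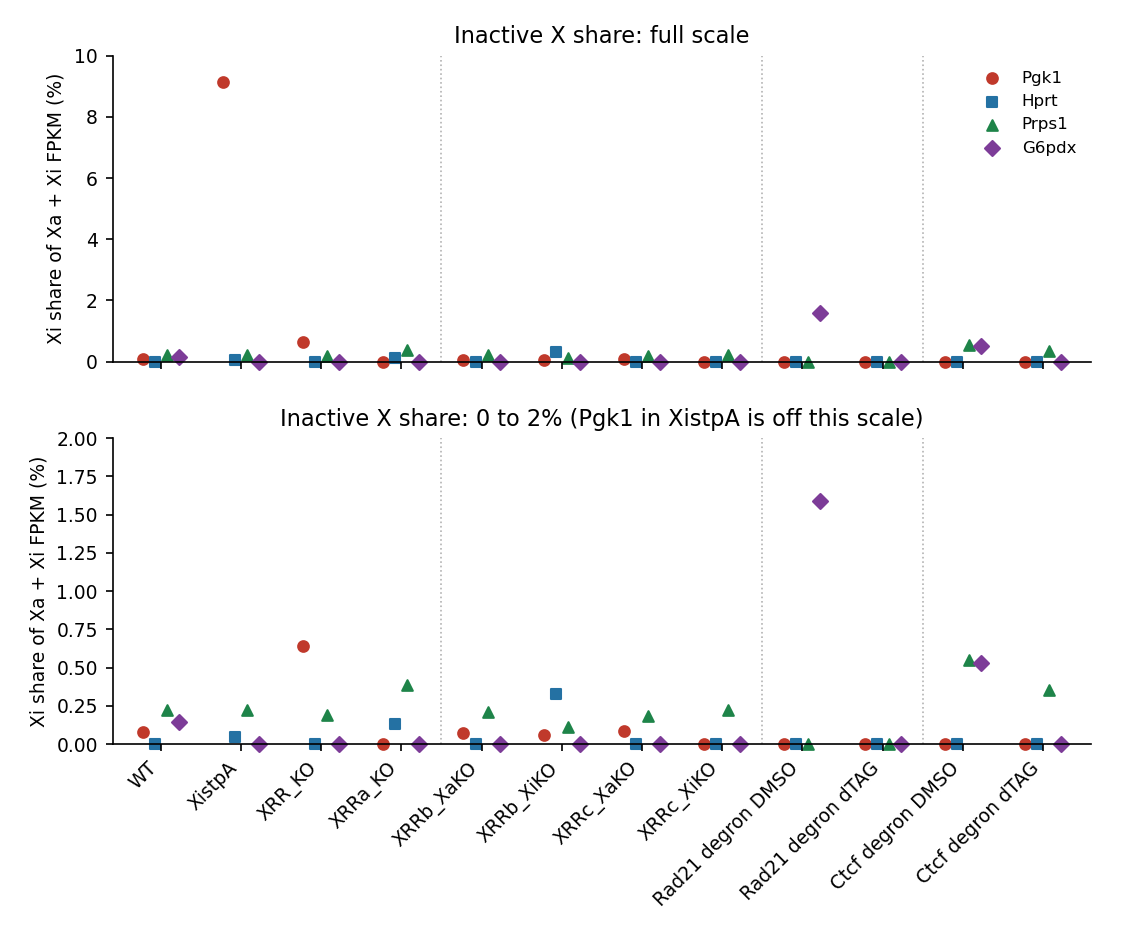
Xi share (percent of Xa plus Xi FPKM) of the 4 genes in the 12 groups, on a full scale above and from 0 to 2% below, with dotted lines between the 4 tables. Pgk1 in XistpA reaches 9.14%, G6pdx in Rad21 degron DMSO cells 1.59%, and every other value is below 1%.

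XistpA was compared with WT, asking how these 4 genes stood on Xi where no Xist was listed there. Pgk1 rose on Xi from 0.352 to 37.1 FPKM, a log2(FPKM + 0.5) change of 5.46, where a change of 1 or more is called rose or fell. Hprt went from a listed 0 to 0.0895 FPKM (0.24), Prps1 from 0.108 to 0.122 FPKM (0.03) and G6pdx from 0.0263 FPKM to a listed 0 (-0.07), none past that size. Thus 1 of 4 genes rose, where 12.2% of 270 tested genes rose and 1.48% fell on Xi, so the count itself does not set the group apart. In bulk samples, more cells with Pgk1 active on Xi and more Xi RNA per cell cannot be told apart.

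On Xa in XistpA, Pgk1 went from 435 to 369 FPKM (-0.24), Hprt from 201 to 190 (-0.08), G6pdx from 18.1 to 17.1 (-0.09) and Prps1 from 49.2 to 55.1 (0.16). None of the 4 passed the size rule, as 1.11% of tested genes rose and 3.33% fell on Xa. Pgk1's Xi gain was smaller than its Xa difference, and its summed Xa plus Xi FPKM was 406 against 435 in WT (-0.10). Its total output was therefore listed no higher in XistpA than in WT.

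Among the 33 genes that rose on Xi in XistpA it ranked 2nd by log2 change and 5th by Xi FPKM, but 26th by Xi share, with 9.14% beside a median of 35.8%. Its Xa level in WT was the highest of the 33. The size rule acts on Xi FPKM, so a gene with high Xa can pass it at a low share (Bex1 at 422 Xa FPKM with 0.315%), whereas Rbm41 at 1.54 Xa FPKM passed with 46.6%. The low rank by share is therefore in part set by the rule that chose the 33 genes, and nothing is read from it. The 7 risen genes with a lower share included Cox7b, a subunit of respiratory complex IV, at 4.48%, and Renbp, which encodes renin binding protein, at 3.25%.

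**Figure D3:**
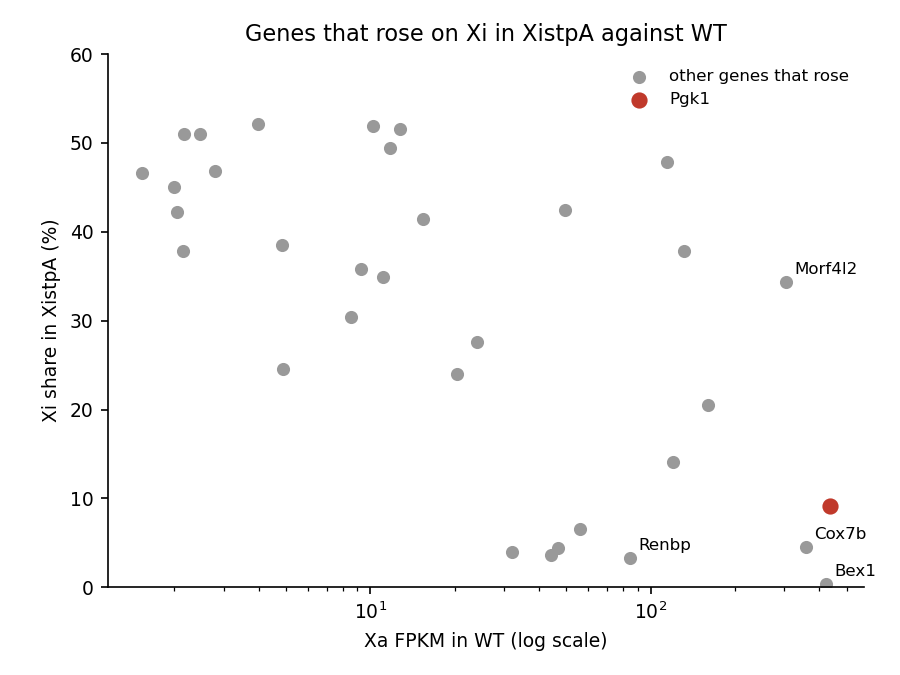
Xi share in XistpA (percent) against Xa FPKM in WT (log scale) for the 33 genes that rose on Xi in XistpA, 1 point per gene. Pgk1, in red, lies at the right edge with 435 Xa FPKM and a share of 9.14%, and the 3 genes next in Xa level (Bex1, Cox7b and Morf4l2) have 0.315%, 4.48% and 34.4%.

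XRR_KO was also compared with WT and shares its WT column with the XistpA comparison. Pgk1 rose on Xi from 0.352 to 2.05 FPKM (1.58), 28th of 270 genes, and was the 1 of 4 that did, with 15.9% of tested genes risen and 1.11% fallen on Xi. Hprt was listed at 0 in both groups, Prps1 had 0.108 and 0.0562 FPKM (-0.13) and G6pdx 0.0263 and 0 (-0.07). The Pgk1 share was 0.638% in XRR_KO against 9.14% in XistpA, although XRR_KO had 58 tested genes at a share of 10% or more and XistpA had 55.

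All 4 genes had lower Xa values in XRR_KO than in WT, and none passed the size rule (1.11% of genes rose and 3.70% fell on Xa). Prps1 went from 49.2 to 29.2 FPKM (-0.74), Hprt from 201 to 128 (-0.65), G6pdx from 18.1 to 12.8 (-0.49) and Pgk1 from 435 to 319 (-0.45). The median tested gene changed by -0.19, and relative to it the 4 stood at -0.56, -0.46, -0.30 and -0.26. The members' median was -0.57.

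In XRRa_KO the 4 genes stayed within the size rule on both alleles, where 5.93% of genes rose and 1.11% fell on Xi and 0.37% rose and 0.37% fell on Xa. Pgk1 went from 0.352 FPKM to a listed 0 on Xi (-0.77) and from 435 to 391 on Xa (-0.15). Hprt went from a listed 0 to 0.260 FPKM on Xi (0.60) and Prps1 from 0.108 to 0.179 (0.16). Their Xa changes were -0.05 and -0.08, and that of G6pdx was 0.05.

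Set directly against XRRa_KO, Pgk1 was higher on Xi in XRR_KO, at 2.05 FPKM against a listed 0 (2.35), the 1 of 4 past the size rule with 12.6% of genes risen and 1.85% fallen on Xi. On Xa the 4 were lower in XRR_KO by -0.30 for Pgk1, -0.54 for G6pdx, -0.60 for Hprt and -0.66 for Prps1, beside a median of -0.24 over all tested genes, none past the size rule (1.48% of genes rose and 4.07% fell). These values use the same XRR_KO column as the comparison with WT and add no independent support to it.

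The XRRb and XRRc lines were compared as XiKO against XaKO. In XRRb, Hprt rose on Xi from a listed 0 to 0.702 FPKM (1.27), 1 of 4 genes where 1.92% of 261 rose and 0% fell. Its share was then 0.330%, while its Xa level was 224 and 212 FPKM (-0.08). Pgk1 on Xi had 0.315 and 0.226 FPKM (-0.17), Prps1 0.133 and 0.0733 FPKM (-0.14), and G6pdx was listed at 0 in both. The Hprt change was 0.77 with a pseudocount of 1 FPKM and so fell below the size rule.

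In XRRc no member passed the size rule on Xi, where 0.766% of genes rose and 1.53% fell. Pgk1 went from 0.352 FPKM to a listed 0 (-0.77), Prps1 had 0.0983 and 0.118 FPKM (0.05), and Hprt and G6pdx were listed at 0 in both. On Xa the 4 genes changed by -0.23 to 0.09 in XRRb and by -0.25 to -0.02 in XRRc, all within the size rule. On Xa 0.766% of genes rose and 2.3% fell in XRRb, and 1.15% rose and 1.15% fell in XRRc. Between XRRb_XaKO and XRRc_XaKO, a yardstick for lines that share the XaKO name, the Xa changes were -0.08 to 0.24 and the Xi changes -0.06 to 0.08, none past the size rule. There 1.15% of genes rose and 0.766% fell on Xa, and 0.383% rose and 1.15% fell on Xi. The Xa values of XiKO against XaKO were of that order.

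In Rad21 degron cells, dTAG treatment was compared with DMSO. Prps1 fell on Xa from 21.5 to 9.26 FPKM (-1.17), the 1 of 4 past the size rule, where 15% of 247 genes fell and 6.48% rose. G6pdx went from 15.1 to 9.29 FPKM (-0.67), Hprt from 74.1 to 57.5 (-0.36) and Pgk1 from 195 to 170 (-0.20). The median Xa change was -0.26, and relative to it Prps1 stood at -0.91, below the size rule, G6pdx at -0.41, Hprt at -0.11 and Pgk1 at 0.06. At equal median Xa FPKM, Hprt (0.05) and Pgk1 (0.22) had positive signs, G6pdx was at -0.27 and Prps1 at -0.77. Summed over both alleles Prps1 fell by 1.17, with 13.8% of genes fallen.

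The fall of Prps1 against its pathway partner Hprt can be read within columns, where scaling has no part. Hprt was 3.45 times Prps1 with DMSO and 6.21 times with dTAG in Rad21 degron cells. In the 8 groups of the first 2 tables this ratio ran from 3.15 in XRRb_XiKO to 4.397 in XRR_KO. On Xi, Pgk1, Hprt and Prps1 were listed at 0 with both treatments, and G6pdx had 0.243 FPKM with DMSO and 0 with dTAG (-0.57), where 4.05% of genes rose and 3.24% fell.

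In Ctcf degron cells, dTAG and DMSO were compared in the same way. Pgk1 went from 93.0 to 149 FPKM on Xa (0.68) and Hprt from 30.4 to 43.1 (0.50), while G6pdx had 10.3 and 11.1 FPKM (0.10) and Prps1 9.26 and 9.06 (-0.03). None passed the size rule, where 5.42% of 277 genes rose and 0.722% fell. The median Xa change was 0.23, and relative to it Pgk1 stood at 0.44, Hprt at 0.26, G6pdx at -0.13 and Prps1 at -0.26. Hprt was 3.28 times Prps1 with DMSO and 4.75 times with dTAG. On Xi, Pgk1 and Hprt were listed at 0 with both treatments, and G6pdx (-0.15) and Prps1 (-0.05) stayed within the size rule, where 0.361% of genes rose and 0.361% fell.

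The Rad21 and Ctcf comparisons differed in the sign of the Xa change for Pgk1 (-0.20 and 0.68) and Hprt (-0.36 and 0.50) as deposited. The difference between them was not tested, and the medians of all tested genes had the same opposite signs. Centred on those medians, Pgk1 was positive in both, while Hprt kept opposite signs (-0.11 and 0.26). At equal median Xa FPKM, Hprt was positive in both (0.05 and 0.23), so its signs depended on the scaling.

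**Figure D4:**
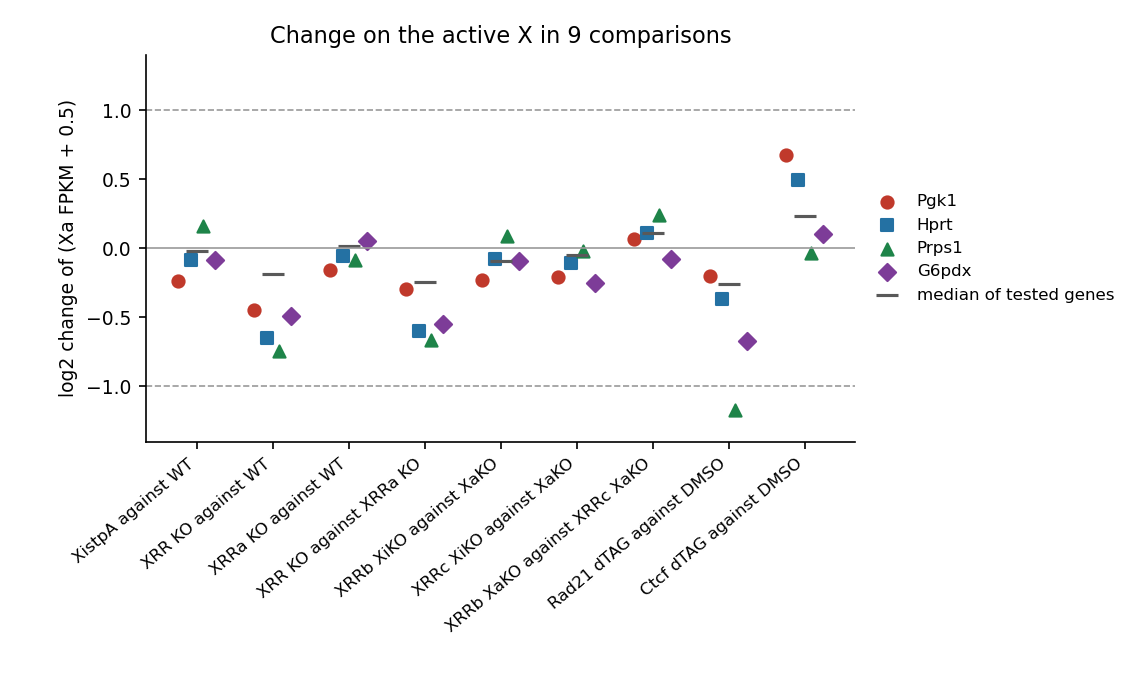
Change of log2(Xa FPKM + 0.5) of the 4 genes in 9 comparisons, 1 point per gene, with dashes for the median of tested genes and broken lines at the size rule of 1 in each direction. Only Prps1 in the Rad21 comparison (-1.17) passes the lines.

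Neighbouring genes show what stood around each member on Xi. Gene order was taken from RefSeq genes of GRCm38.p6, over 232 genes tested in all 4 tables. In that order Hprt lies 81 genes proximal of Xist, G6pdx 40 proximal, Pgk1 10 distal and Prps1 43 distal. The 5 tested genes on each side were examined for each member. Over all 270 tested genes, 12.2% rose on Xi in XistpA and 15.9% in XRR_KO, and with 10 neighbours a member the counts below are descriptions and set no neighbourhood apart.

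Around Pgk1, 1 of 10 neighbours rose on Xi in XistpA (Cox7b, from 0.0293 to 15.4 FPKM) and 2 in XRR_KO (Cox7b to 11.8 FPKM and Sh3bgrl to 1.43 FPKM, a share of 8.02%). Sh3bgrl had its highest share, 15.6%, in XRRa_KO. Atp7a, a copper-transporting ATPase and the nearest on the proximal side, was listed at 0 in WT and had shares of 12.1% in XistpA and 17.3% in XRR_KO at 0.273 and 0.466 FPKM. Taf9b, the nearest on the distal side and a subunit of the general transcription factor TFIID, was listed at 0 on Xi in both, as it was in WT. Atrx, a chromatin remodeller, was also listed at 0 in these 3 groups, and Pbdc1 had a share of 18.6% already in WT. Cox7b and Atp7a had higher listed shares in XRR_KO than in XistpA (5.24% and 4.48% for Cox7b), whereas Pgk1 had 0.638% and 9.14%.

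Around Hprt, 3 of 10 neighbours rose on Xi in both XistpA and XRR_KO, all on the distal side. Mospd1 went from a share of 0.153% in WT to 23.9% in XistpA and 11.8% in XRR_KO, and 3830403N18Rik from 0.190% to 37.8% and 29.9%. Xlr reached 3.91% and 3.92% from a listed 0. Hprt itself had 0.0470% and 0, and its proximal neighbours Gpc3 and Gpc4, heparan sulfate proteoglycans, were listed at 0 on Xi in all 12 groups.

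Around G6pdx, 0 of 10 neighbours rose in XistpA and 1 in XRR_KO, the membrane scaffold gene Mpp1, from a listed 0 to 2.64 FPKM (9.41%). No gene of this neighbourhood reached a share of 10% in any group. Dkc1, which works in the processing of ribosomal and telomerase RNA, and Fam3a, on either side of G6pdx, were listed at 0 on Xi wherever a share could be computed. The highest share next to the other 3 members was 34.8% for Pgk1 (Pbdc1), 37.8% for Hprt and 40.5% for Prps1.

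Around Prps1, 2 of 10 neighbours rose on Xi in XistpA and 4 in XRR_KO. The autophagy protease gene Atg4a went from a listed 0 to shares of 30.4% and 40.5%, and Mum1l1 from 0.305% to 34.9% and 38.7%. In XRRa_KO they had 12.1% and 25.0%. Trap1a went from a listed 0 to 1.34 FPKM in XRR_KO and Gm5643 from 0.504 to 1.61 FPKM, and neither rose in XistpA. Prps1 had 0.221% and 0.192% between them, so members without an Xi change sat within a few tested genes of genes that had one.

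**Figure D5:**
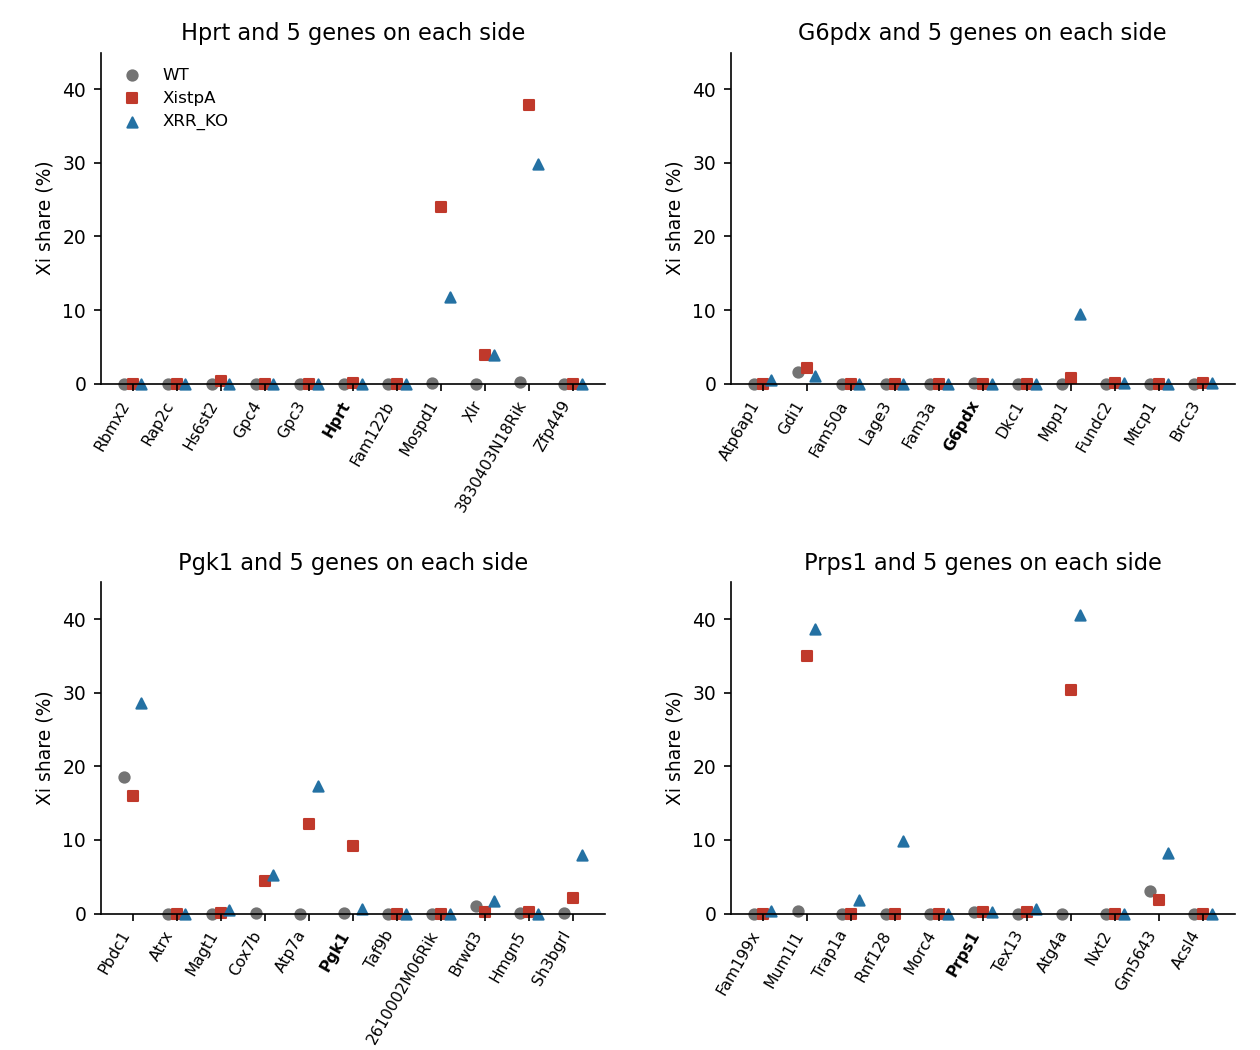
Xi share (percent) in WT, XistpA and XRR_KO of each of the 4 genes, in bold, and of the 5 tested genes on each side in RefSeq order, not to distance. Pgk1 is the 1 member above 1%, and Mospd1, 3830403N18Rik, Mum1l1 and Atg4a exceed 20% in XistpA.

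No member reached a share of 10%, so the rule for naming genes of like pattern gave none. The limit was then lowered to 5%, a choice made after the values were seen. Candidates were the 68 other genes that reached a share of 5% in at least 1 group. Of these, the 3 nearest to Pgk1 by mean absolute difference in Xi share over the 12 groups were Haus7 (0.372 percentage points), Shroom2 (0.703) and Cox7b (0.795). Genes that stayed lower, such as Renbp (3.25% in XistpA and 0.867% in XRR_KO), were not candidates. Genes outside the 68 could therefore lie nearer. Haus7 had 6.58% in XistpA and 2.26% in XRR_KO and was listed at 0 in the other groups. Shroom2 had 13.96% and 3.96%, and Cox7b 4.48% and 5.24%, beside 9.14% and 0.638% for Pgk1. All 4 genes were near 0 in the other 10 of the 12 groups averaged, so the small mean differences come largely from shared values near 0. The groups share tables and cell source.

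Other X-linked genes of glucose, nucleotide and allied metabolism were examined as a list of 23 symbols, of which 22 were listed, 17 tested in at least 1 table and 11 in all 4. On Xi in XistpA, 1 of 13 tested rose, near the 12.2% of all tested genes that rose, and the list's median was 0.01 beside 0 over all tested genes. It was Renbp, from a listed 0 to 2.36 FPKM (2.52). In XRR_KO none of 13 rose or fell against WT on either allele, where 15.9% of all tested genes rose and 1.11% fell on Xi and 1.11% rose and 3.70% fell on Xa, and the list's Xa median was -0.41 beside -0.19 over all tested genes. Against XRRa_KO, 1 of 13 fell on Xa, Sat1, which acetylates polyamines, from 451 to 211 FPKM (-1.10). Of all tested genes 4.07% fell on Xa there, and the list's Xa median was -0.43 beside -0.24 over all tested genes.

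With Rad21 dTAG, 2 of 11 fell on Xa, the spermine synthase gene Sms from 6.004 to 2.14 FPKM (-1.30) and the fatty acid activating enzyme gene Acsl4 from 5.59 to 1.51 FPKM (-1.60). That count is near the 15% of all tested genes that fell on Xa. Sms also fell on Xi from 0.572 FPKM to a listed 0 (-1.10), 1 of 11 where 3.24% of all tested genes fell on Xi. Prps2, a second X-linked phosphoribosyl pyrophosphate synthetase gene, was listed in the Ctcf table only, with 5.43 and 6.06 Xa FPKM and 0 on Xi with both treatments. No tested gene of the list had an Xi share of 10% or more in any group, and the highest was Sms at 8.70% with Rad21 DMSO.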

How the data were processed

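Per the labels' protocols, polyadenylated RNA of XEN cells was turned into unstranded Smart-seq2 libraries. Reads were handled with StringTie 2.1.1, HISAT2 2.2.0 and Trim Galore 0.6.4 on mm9, per the submitters' processing notes. The authors deposited 4 tables of FPKM values for X-linked genes on Xa and Xi in 24 columns, merged over the samples of a group per the file headers. Allele assignment is not given in the sources used. Columns of the Ctcf table give just the treatment and were assigned by elimination.

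A gene was tested if its summed FPKM had a mean of at least 1 across a table's groups (270, 261, 247 and 277 genes). Differences are of log2(FPKM + 0.5), which understates changes of low genes, with 1 or more called rose or fell. A test across samples, planned for columns per sample, could not be run. A listed 0 can be a failed estimate. Named genes are the members, their 5 neighbours on each side, genes of like Xi share, Prps2, Xist, and listed metabolic genes past the size rule, of which 1 is not reported here; Morf4l2, Bex1 and Rbm41 were picked once their values were known. The members and lists were chosen with earlier results of these data known. Copies were sought by aligning GENCODE M21 transcripts with minimap2 2.31, and promoters are from RefSeq. Scripts ran in Python 3.11.15 (pandas 2.3.3, numpy 2.4.6, matplotlib 3.10.9).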

Additional observations from a re-analysis of the deposited data

How the results depend on the processing

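Of 432 recomputed member changes, 422 stayed on the same side of the size rule, among them the rise of Pgk1 on Xi in XistpA under all 4 settings tried. With a pseudocount of 0.1 FPKM, which enlarges differences from a listed 0, values on Xi past the rule were added for Pgk1 in XRRa_KO (-2.18) and XRRc (-2.18), Hprt in XRRa_KO (1.85) and in XRR_KO against XRRa_KO (-1.85), and G6pdx with Rad21 dTAG (-1.78). Hprt in XRRb went to 0.77 with a pseudocount of 1 FPKM. Prps1 with Rad21 dTAG, on Xa and on Xa plus Xi, went to -0.77 at equal median Xa FPKM and -0.91 centred on the median Xa change. The cause of these shifts was not tested.

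Counts of genes past the rule, both directions together, moved by over 1.5 times in 25 of 108 recomputations. On Xi a pseudocount of 0.1 FPKM gave 64 in XistpA (37 as reported), 75 in XRR_KO (46), 39 in XRRa_KO (19), 65 in XRR_KO against XRRa_KO (39), 16 in XRRb (5), 19 in XRRc (6), 12 between the XaKO lines (4), 34 with Rad21 dTAG (18) and 12 with Ctcf dTAG (2). A pseudocount of 1 FPKM gave 11 in XRRa_KO, 3 in XRRb, 11 with Rad21 dTAG and 1 with Ctcf dTAG, and centring gave 1 with Ctcf dTAG. On Xa a filter of 5 FPKM, which tests fewer genes, gave 2 in XistpA (12), 8 in XRR_KO (13), 0 in XRRa_KO (2), 9 in XRR_KO against XRRa_KO (15), 2 in XRRb (8), 3 in XRRc (6), 2 between the XaKO lines (5), 34 with Rad21 dTAG (53) and 6 with Ctcf dTAG (17). No filter gave 6 in XRRa_KO and 12 in XRRc.

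Scaling moved the balance of rises and falls. On Xa in XRR_KO against WT they numbered 3 and 10 as deposited, 6 and 7 at equal median and 7 and 4 centred; against XRRa_KO 4 and 11, 8 and 7, and 10 and 6; and with Rad21 dTAG 16 and 37, 25 and 19, and 22 and 26. On Xi they were 10 and 8, 14 and 4, and 17 and 4 with Rad21 dTAG, and with Ctcf dTAG 1 and 1 as deposited and 0 and 1 centred. No paired analysis was possible because the columns are merged over replicates, and leaving out replicates was not possible for the same reason. FPKM carries no depth, so no interval or detection limit is given, and shares below 1% rest on an unknown number of reads.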

Other observations

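Some ratios between members within a column differed between the degron tables and the other 2, and others did not. Pgk1 was 1.79 to 2.48 times Hprt on Xa in the 8 groups of the first 2 tables, 2.63 and 2.96 times in Rad21 degron DMSO and dTAG cells, and 3.06 and 3.46 times in Ctcf degron DMSO and dTAG cells. Hprt was 10.04 to 12.4 times G6pdx in the 8 groups, 4.91 and 6.18 times in Rad21 degron cells and 2.96 and 3.89 times in Ctcf degron cells. Prps1 was 2.28 to 3.92 times G6pdx in the 8 groups, against 1.42 and 0.902 times with DMSO in Rad21 and Ctcf degron cells. Ratios of Hprt and Pgk1 to Prps1 in the DMSO columns lay within the range of the 8 groups. Hprt was 3.45 and 3.28 times Prps1 with DMSO in Rad21 and Ctcf degron cells, against 3.15 to 4.397 in the 8 groups, and Pgk1 was 9.09 and 10.04 times Prps1, against 5.65 to 10.9. In the Ctcf table Hprt ranked 38th and 31st of 277 tested genes on Xa, against 12th to 15th in the first 2 tables, and Pgk1 14th and 11th against 5th to 8th. Where the ratios of Pgk1 to Hprt, of Hprt to G6pdx and of Prps1 to G6pdx differed, the DMSO columns differed too. Table and cells cannot be told apart.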
